A study of Mus musculus with 20 samples.

Results

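The interferon-stimulated genes followed here are 40 mouse genes that cells switch on in response to interferons, measured in the lungs of 20 dams that had received carbon black or vehicle by the airways during pregnancy. The members were taken as a fixed list of gene symbols. A microarray probe was assigned to a gene by its accession in the scanner files where that gave a single gene, and otherwise by its name. Every probe assigned to a member carried that symbol or a synonym as its name. Of the 40, 39 had such a probe and 38 passed the signal filter among 19915 genes tested. Oas1g had only dim probes and no probe carried the name Xaf1. Assigning probes by accession or name uses no measured value, but the probe with the highest mean signal stood for each gene.

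Interferons are cytokines released mainly when cells sense viral nucleic acid or other signs of infection. They bind receptors that activate JAK kinases and STAT transcription factors. Type I and III interferons act largely through a complex that contains STAT2 and IRF9 and binds the interferon-stimulated response element in DNA. Interferon gamma acts largely through the gamma-activated site and through IRF1. The induced genes encode RNA sensors, enzymes and membrane proteins that block viral replication, GTPases that act on intracellular pathogens, and the immunoproteasome and peptide transporter that supply antigen to MHC class I. IRF7 is itself induced and amplifies the type I response. In lung, epithelial cells, macrophages and other immune cells can all express these genes.

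The dams were young adult, nulliparous, time-mated females of the inbred strain C57BL/6BomTac. Each group held 5 dams. Carbon black of the type Printex 90, a pigment of nanosized carbon particles, was given by intratracheal instillation on days 7, 10, 15 and 18 of gestation. Control dams received the vehicle, Milli Q water, on the same days. The low, medium and high groups received 2.75, 13.5 and 67 µg per instillation, which summed to 11, 54 and 268 µg over the 4 instillations. The lungs were collected after weaning of the litters, 26 to 27 days from the exposure. Every group had therefore gone through mating, pregnancy, repeated instillation and lactation, and no unexposed or non-pregnant mice were in the comparison. Whole-lung RNA was labelled with Cy5 and hybridised with a Cy3-labelled commercial universal mouse reference RNA, 1 array per dam, without a dye swap. Values are log2 ratios of lung over reference, so a difference of 1 between groups is a doubling. Whole lung is a mixture of cell types, and fewer cells of a type cannot be told apart from less RNA per cell.

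The arrays were similar in quality. Between 64.0% and 78.3% of probes lay well above background in the lung channel, and the correlation between arrays ran from 0.946 to 0.985. The number of arrays limits the precision. The 5 markers of lung epithelium and vessel lining tested were higher in lung than in the reference in every group. Slides 1 to 3 held 1 dam of each group, slides 4 and 5 held 1 control, 1 low and 1 high dam, and slide 6 held 2 medium dams only. Within the slides that carried a control, position on the slide followed the group, so position and dose cannot be told apart there.

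Each of the 38 tested members lay well above background on all 20 arrays, and none was saturated. The mean Cy5 signal ran from 135 for Oas1b, 212 for Mx1 and 267 for Oas3 to 20398 for Irf1. In control lungs 28 of the 38 members (73.7%) were higher in lung than in the reference, against 48.8% of all genes tested.

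Promoters of 6 members are shown because the results below turn on these genes, and because they differ in their matches to 2 interferon response motifs. The sequences come from RefSeq (GRCm38.p6) and each gives the 250 bases before the start site, 5′ to 3′ on the strand of the gene. Capitals mark matches, on either strand, to the core of the interferon-stimulated response element (GAAA, any 2 bases, then GAAA again) and to TTCNNNGAA, the core of the gamma-activated site.
Isg15 (chr4:156200819-156201068, minus strand): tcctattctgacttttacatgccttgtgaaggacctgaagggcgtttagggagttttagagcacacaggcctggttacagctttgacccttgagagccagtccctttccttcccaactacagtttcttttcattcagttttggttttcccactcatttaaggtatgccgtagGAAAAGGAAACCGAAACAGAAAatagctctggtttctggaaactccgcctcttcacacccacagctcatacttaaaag
Ifit1 (chr19:34640639-34640888, plus strand): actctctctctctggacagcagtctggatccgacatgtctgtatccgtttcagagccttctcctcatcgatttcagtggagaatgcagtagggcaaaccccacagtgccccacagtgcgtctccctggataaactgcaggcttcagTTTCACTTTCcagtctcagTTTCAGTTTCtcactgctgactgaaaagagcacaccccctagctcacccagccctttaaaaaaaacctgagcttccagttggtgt
Bst2 (chr8:71537473-71537722, minus strand): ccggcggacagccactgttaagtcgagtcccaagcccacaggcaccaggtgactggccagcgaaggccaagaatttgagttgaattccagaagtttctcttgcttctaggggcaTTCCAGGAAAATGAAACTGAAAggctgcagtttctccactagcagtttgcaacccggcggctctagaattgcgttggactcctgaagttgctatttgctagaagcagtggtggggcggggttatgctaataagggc
Oas1a (chr5:120907526-120907775, minus strand): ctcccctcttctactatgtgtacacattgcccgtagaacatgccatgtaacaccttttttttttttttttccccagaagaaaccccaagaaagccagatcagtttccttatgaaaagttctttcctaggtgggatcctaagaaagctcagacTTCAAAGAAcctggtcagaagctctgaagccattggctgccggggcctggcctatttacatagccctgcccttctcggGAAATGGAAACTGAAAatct
Oasl2 (chr5:114896684-114896933, plus strand): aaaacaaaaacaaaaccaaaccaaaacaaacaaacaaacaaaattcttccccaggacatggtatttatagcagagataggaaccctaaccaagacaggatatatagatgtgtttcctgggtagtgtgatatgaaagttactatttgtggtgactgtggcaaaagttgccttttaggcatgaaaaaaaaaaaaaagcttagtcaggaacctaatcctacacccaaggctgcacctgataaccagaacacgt
Ddx58 (chr4:40239826-40240075, minus strand): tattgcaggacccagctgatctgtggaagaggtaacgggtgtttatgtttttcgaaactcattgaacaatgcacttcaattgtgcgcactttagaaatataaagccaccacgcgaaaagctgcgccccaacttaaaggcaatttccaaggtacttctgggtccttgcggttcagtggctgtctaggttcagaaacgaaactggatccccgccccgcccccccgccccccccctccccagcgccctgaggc

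Isg15 held 3 overlapping matches to the response element core, beginning 78, 72 and 66 bases before the start. Ifit1 held 2 separate matches on the opposite strand, beginning 104 and 85 bases before the start. Bst2 had 2 overlapping matches at 130 and 124 bases, the first of which overlapped a match to the gamma-activated core at 136. In Oas1a, 2 overlapping matches began 20 and 14 bases before the start, and a gamma-activated core lay at 98. Oasl2 and Ddx58 had no match to either in the printed stretch, but Ddx58 had 1 match to the response element core in the 50 bases after the start, which are not printed. Over the 300-base window that also takes in those 50 bases, 17 of 30 members with a promoter in the table (56.7%) held the response element core, against 3.99% of 27025 genes. The gamma-activated core was found in 9 of the 30 members (30.0%), against 9.55% of all genes. A match to these letters is a description of the window, not evidence of a bound site.

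The main question of the design was whether lungs of exposed dams differed from those of control dams several weeks after the last instillation. At the high dose 1 member, Ddx58, was higher than in controls, by 0.48 ± 0.11 (SE, n = 5 per group) on the log2 scale, or 1.39-fold. No member was lower. Across all genes tested, 0.492% were called higher and 0.532% lower at this dose. Of the 38 members, 32 (84.2%) had a positive difference, against 46.7% of all genes, and the median was 0.13 against -0.0091. At an unadjusted p under 0.05, 9 members (23.7%) were higher and 0 lower, against 7.69% and 8.83% of all genes. These counts describe the list and are not a test of it. Without high dam 60 the median over the members was 0.069, and without control dam 14 it was 0.19.

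The medium and low doses gave no call among the 38 members by limma with Benjamini-Hochberg adjustment, against 0.00502% of all genes called in either direction at each dose. At the medium dose 27 members were positive (71.1%, against 52.5% of all genes) and the median was 0.055. At an unadjusted p under 0.05, 5 members (13.2%) were higher and 1 (2.63%) was lower, against 7.62% and 6.44% of all genes. At the low dose 19 of 38 were positive, against 49.9% of all genes, and the median was -0.0016. At that p 0 members were higher and 1 lower, against 3.44% and 4.05% of all genes. Without control dam 14 these medians were 0.14 at the medium and 0.076 at the low dose, and without control dam 4 the medium median was 0.019. The comparisons with control all use the same 5 control dams, so their values are not independent of each other.

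**Figure D1:**
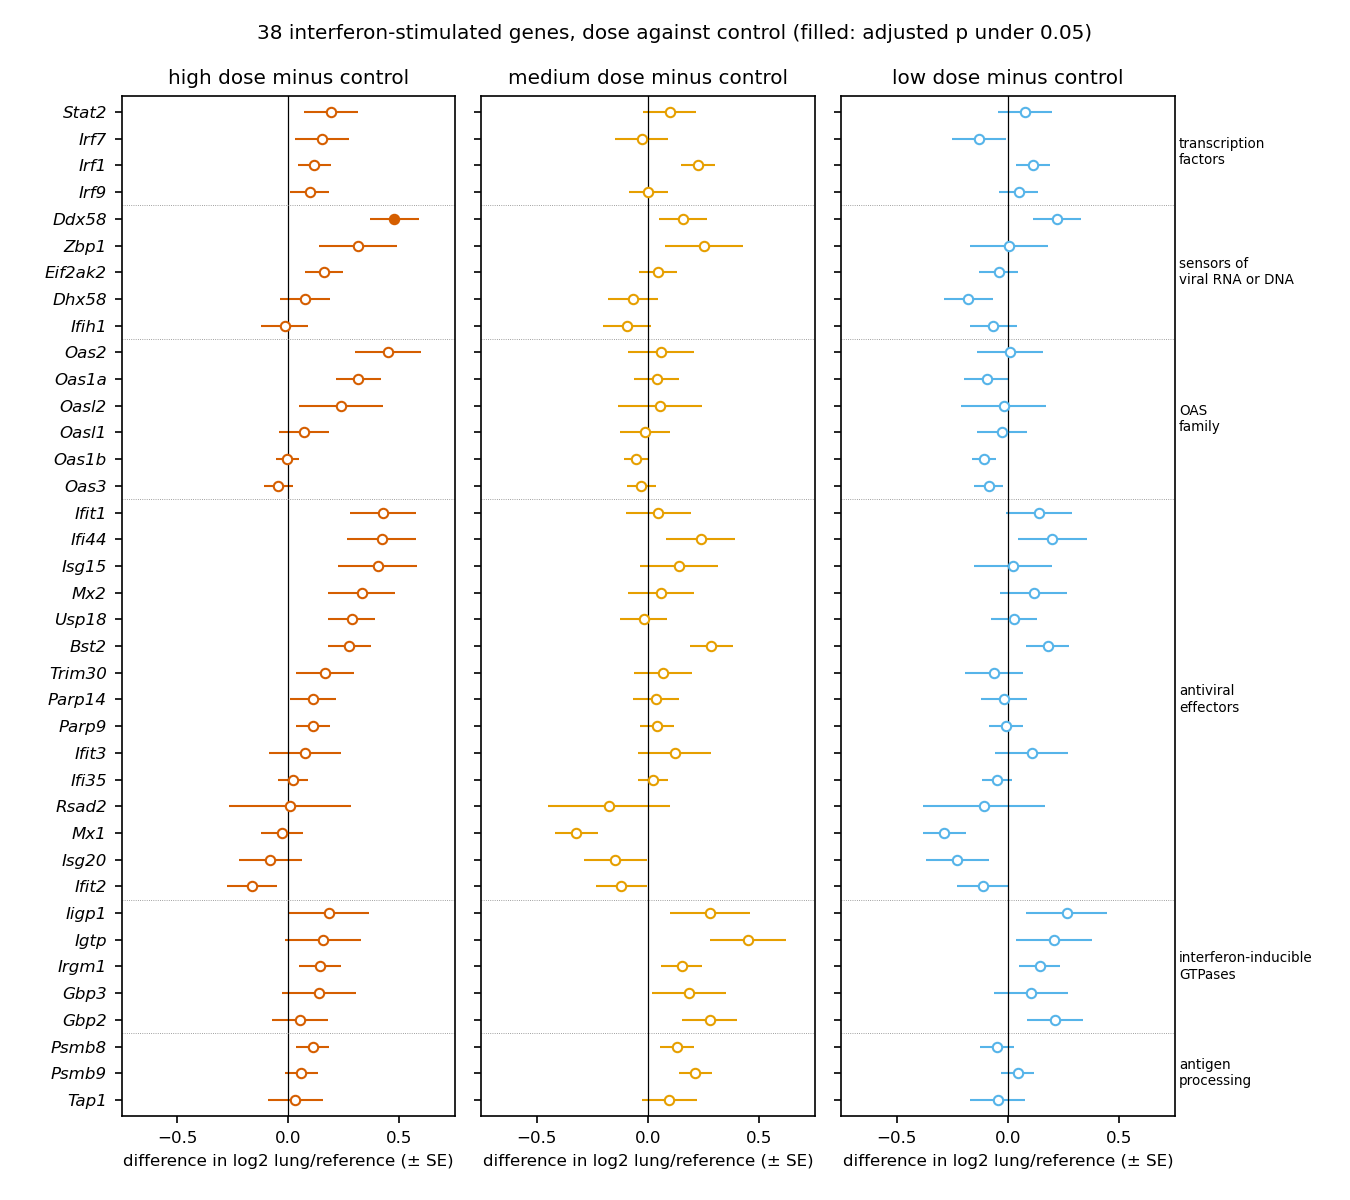
Difference in log2 lung/reference between each dose group and the controls (x axis, points, with the standard error of the fit as bars) for each of the 38 tested members (y axis), grouped by role and ordered within a role by the high-dose difference. Ddx58 at the high dose is the single filled point (adjusted p under 0.05), and 32 of 38 points lie right of 0 at the high dose against 19 of 38 at the low dose.

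The sensors of viral nucleic acid are the members that start an interferon response. Ddx58 encodes RIG-I, which recognises viral RNA with a free triphosphate end. Its values were 0.56, 0.63, 0.84, 0.89 and 0.92 in the control dams and 1.08, 1.17, 1.24, 1.24 and 1.50 in the high-dose dams. The lowest high-dose value exceeded the highest control value, as was so for 1 of 38 members and for 1.49% of all genes. Low-dose dams ranged from 0.78 to 1.21 and medium-dose dams from 0.65 to 1.09, overlapping both. The high-dose difference had a 95% interval of 0.25 to 0.71 and an adjusted p of 0.0376 (limma, Benjamini-Hochberg). The difference was 0.22 ± 0.11 at the low dose (adjusted p = 0.682) and 0.16 ± 0.11 at the medium dose (adjusted p = 0.533). High-dose dams exceeded the control on the same slide on 5 of 5 slides, by 0.19 to 0.66.

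The call for Ddx58 stood close to the threshold and rested on 1 probe. It was lost when control dam 4, 7, 15 or 18 or high dam 62, 63, 64 or 65 was left out, with adjusted p from 0.0515 to 0.0913. The brightest of the 4 Ddx58 probes, with a mean Cy5 signal of 1277, gave the value above. The other 3, with mean signals of 568, 350 and 136, gave high-dose differences of 0.16, 0.044 and 0.054, with adjusted p from 0.425 to 0.876. The mean of the 4 probes differed by 0.18 (adjusted p = 0.123).

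The other sensors did not pass. Zbp1, a sensor of Z-form nucleic acid that can trigger cell death, differed by 0.31 ± 0.18 at the high dose (adjusted p = 0.385). Eif2ak2 encodes PKR, the kinase that halts translation on binding double-stranded RNA, and differed by 0.16 ± 0.086 (adjusted p = 0.364). Dhx58 encodes LGP2, a regulator of the other RIG-I-like receptors. Ifih1 encodes MDA5, which binds long double-stranded RNA. Their high-dose differences were 0.075 ± 0.11 and -0.016 ± 0.11, and both were negative at the low and medium doses.

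Active enzymes of the OAS family make 2′-5′ oligoadenylates that activate RNase L, although not every member of the family is an active synthetase. Oas1a and Oas2 had the smallest high-dose p among the members after Ddx58. Oas1a stood at -0.62, -0.42, -0.34, -0.27 and 0.010 in control dams and at -0.21, -0.11, -0.040, 0.039 and 0.26 in high-dose dams. Control dam 14 held the highest control value and lay above 3 of the 5 high-dose dams. The difference was 0.31 ± 0.10 (adjusted p = 0.126). Medium-dose dams, from -0.44 to -0.11, and low-dose dams, from -0.57 to -0.30, lay within the control range.

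For Oas2 the control values were -0.56, -0.36, -0.36, -0.34 and 0.25, and the high-dose values were -0.26, 0.027, 0.12, 0.33 and 0.65. Control dam 14 was again the exception, while the other 4 control dams lay below all 5 high-dose dams. The high-dose difference of 0.45 ± 0.15 did not pass (adjusted p = 0.136). Without control dam 14 it was 0.58 and passed (adjusted p = 0.0460), and without high dam 60 it was 0.33. The low-dose dams reached from -0.56 to -0.053 and the medium-dose dams from -0.33 to -0.14, with differences of 0.011 ± 0.15 and 0.057 ± 0.15.

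Oas1b had, after Mx1 and Ddx58, the smallest low-dose p among the members. C57BL/6 mice carry a truncated Oas1b. Its values ran from -0.18 to 0.043 at the low dose and from -0.053 to 0.12 in controls, and the difference was -0.11 ± 0.053 (adjusted p = 0.682). Its probe was the dimmest of the members. Oas3 and Oasl1 differed from control by less than their standard error at the high dose, at -0.044 ± 0.065 and 0.071 ± 0.11.

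The antiviral effectors were the largest group of members, 15 in all. At the high dose 12 were positive with a median of 0.11, and no member of this group passed the test at any dose. Ifit1 encodes a protein that binds viral RNA lacking the host cap methylation. Its control values were -0.37, -0.28, 0.023, 0.052 and 0.11, and its high-dose values were -0.025, 0.23, 0.31, 0.39 and 0.76. In 4 of 5 high-dose dams Ifit1 was above every control, and high dam 65 was not. The difference was 0.43 ± 0.15 (adjusted p = 0.150), and it was 0.046 ± 0.15 at the medium dose. Low-dose dams spread widely, from -0.34 to 0.42.

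Bst2 encodes tetherin, which holds budding virions at the cell surface. It had similar differences at both upper doses. Its control values were 0.069, 0.13, 0.15, 0.38 and 0.42, its medium-dose values 0.36, 0.51, 0.54, 0.55 and 0.61, and its high-dose values 0.30, 0.41, 0.45, 0.47 and 0.90. In the medium group 4 of 5 dams lay above all controls, and in the high group 3 of 5 did. The differences were 0.28 ± 0.097 at the medium dose (adjusted p = 0.230) and 0.28 ± 0.097 at the high dose (adjusted p = 0.160). At the low dose the difference was 0.18 ± 0.097 (adjusted p = 0.714). Without high dam 60 the high-dose difference was 0.18.

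Usp18 removes ISG15 from proteins and restrains signalling at the type I receptor. Control dams stood at -1.09, -0.91, -0.79, -0.73 and -0.72 and high-dose dams at -0.78, -0.70, -0.65, -0.43 and -0.24. The groups overlapped through 1 high-dose dam. The difference was 0.29 ± 0.11 at the high dose (adjusted p = 0.178) against -0.019 ± 0.11 at the medium and 0.027 ± 0.11 at the low dose. Ifi44, Isg15 and Mx2 differed by 0.42 ± 0.16, 0.40 ± 0.18 and 0.33 ± 0.15 at the high dose, with adjusted p from 0.180 to 0.273. A dimmer Ifi44 probe gave 0.18 at the high dose and had a correlation of 0.87 with the probe used.

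Mx1, a dynamin-like GTPase that blocks influenza viruses, went the other way at the lower doses. C57BL/6 mice carry a defective Mx1 allele. Its values were 0.42, 0.46, 0.50, 0.68 and 0.81 in controls, 0.059, 0.26, 0.29, 0.37 and 0.47 at the low dose, and 0.082, 0.25, 0.25, 0.29 and 0.39 at the medium dose. In the high-dose dams it was 0.24, 0.50, 0.54, 0.71 and 0.73, inside the control range except for 1 dam. Every medium-dose dam lay below every control, as was so for 1 of 38 members and for 1.25% of all genes. No member lay wholly above the controls at the medium dose, against 1.96% of all genes. At the low dose no member was separated in either direction, against 1.48% of all genes.

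The Mx1 difference was -0.32 ± 0.096 at the medium dose (adjusted p = 0.196) and -0.29 ± 0.096 at the low dose (adjusted p = 0.588), and neither passed over all genes. It was negative on all 3 slides that held a medium dam and a control, and on all 5 that held a low dam and a control. The high dose differed by -0.028 ± 0.096, with a 95% interval of -0.23 to 0.17. A dimmer Mx1 probe gave -0.20 at the medium dose and had a correlation of 0.83 with the probe used.

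The remaining effectors, each read by its brightest probe, stayed close to control at the high dose. Ifit2, which has an antiviral role related to that of Ifit1, differed by -0.16 ± 0.11 at the high dose, but its dimmer probe gave 0.12. No member lay wholly below the controls at the high dose, against 1.99% of all genes. Rsad2 encodes viperin, which makes a chain-terminating nucleotide. It had the widest spread between dams, from -0.31 to 1.38 in the high group alone, and a high-dose difference of 0.0081 ± 0.27 with a 95% interval of -0.57 to 0.58. Parp9, Parp14, Ifi35, Ifit3, Isg20 and Trim30 had differences from -0.081 to 0.17 at that dose. A second Trim30 probe of similar signal gave 0.27, and dimmer probes of Ifit3 and Isg20 gave -0.12 and -0.092.

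**Figure D2:**
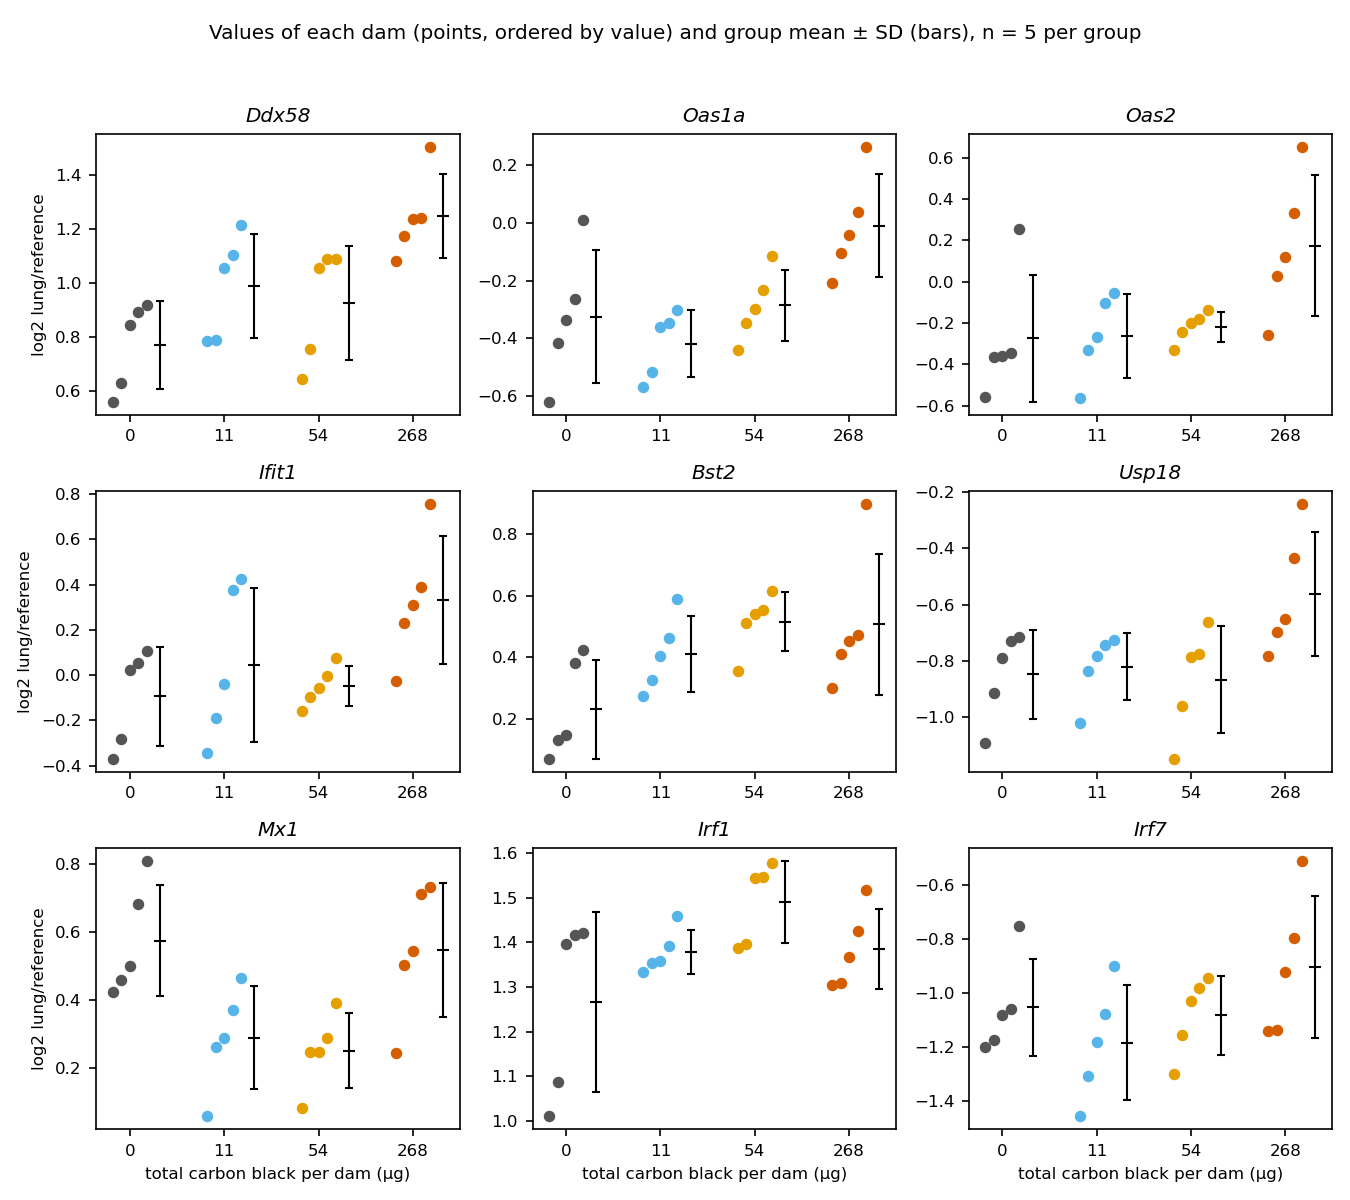
Log2 lung/reference of each dam (points, ordered by value within a group) and group mean ± SD (bars) against the total carbon black per dam in µg for 9 members, n = 5 per group. Ddx58 at 268 µg starts at 1.08, above the highest control at 0.92. Mx1 at 54 µg ends at 0.39, below the lowest control at 0.42.

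Among the transcription factors, Irf7 and Irf1 were examined dam by dam. Irf1, the factor most closely tied to interferon gamma, stood at 1.01, 1.09, 1.40, 1.42 and 1.42 in controls and at 1.39, 1.40, 1.54, 1.55 and 1.58 at the medium dose. The difference of 0.22 ± 0.076 (adjusted p = 0.229) came with 2 control dams, 4 and 7, that lay well below the other 3. A dimmer Irf1 probe gave a medium-dose difference of 0.0032 and had a correlation of 0.15 with the probe used. Irf1 in high-dose dams ranged from 1.30 to 1.52 and in low-dose dams from 1.33 to 1.46.

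Irf7 differed little between groups. It was -1.20, -1.17, -1.08, -1.06 and -0.75 in controls and -1.14, -1.14, -0.92, -0.80 and -0.51 in high-dose dams. Low-dose dams ranged from -1.46 to -0.90 and medium-dose dams from -1.30 to -0.95, so all groups overlapped. The high-dose difference was 0.15 ± 0.12 (adjusted p = 0.574), with a 95% interval of -0.10 to 0.41. Stat2 and Irf9, partners in the factor that binds the response element, differed by 0.19 ± 0.12 and 0.097 ± 0.089.

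The interferon-inducible GTPases had positive differences in all 5 members at each dose, with medians of 0.14, 0.28 and 0.21 at the high, medium and low doses, and none passed the test. Igtp, also called Irgm3, acts with Irgm1 to direct the other GTPases to pathogen vacuoles. It had the highest medium-dose difference among the members, 0.45 ± 0.17 (adjusted p = 0.269), and is described here after its values were seen. Its values were 1.101, 1.14, 1.39, 1.52 and 1.89 in controls and 1.51, 1.76, 1.82, 1.89 and 2.31 at the medium dose, with control dam 14 the highest control. Gbp2, Gbp3, Iigp1 and Irgm1 ranged from 0.15 to 0.28 at that dose.

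In antigen processing, the immunoproteasome subunits Psmb8 and Psmb9 and the peptide transporter subunit Tap1 differed from control by 0.033 to 0.11 at the high dose and by 0.096 to 0.21 at the medium dose. Psmb9 at the medium dose, chosen after its values were seen, was 0.21 ± 0.073 (adjusted p = 0.236). No member of this group passed.

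Differences between doses were tested directly. High against medium gave 0 called members against 0.11% of all genes, and high against low gave 0 against 0.146%. At an unadjusted p under 0.05, 6 members were higher at the high than at the medium dose and 0 lower, against 4.10% of all genes higher and 6.26% lower. High against low gave 10 higher and 0 lower, against 4.93% of all genes higher and 5.02% lower. Oas1a had a difference of 0.41 ± 0.10 from low to high (adjusted p = 0.109) and Oas2 one of 0.44 ± 0.15. Mx1 was 0.30 above the medium dose (adjusted p = 0.294) and Ddx58 was 0.32 above it (adjusted p = 0.319).

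In the control, low and high groups the members' mean varied more between dams than between group means. The group means ran from 0 in controls to 0.15 at the high dose. The medium-dose dams lay closer together than that, from 0.0022 to 0.13. Relative to the control mean, the mean over the 38 members was -0.13, -0.078, -0.069, 0.027 and 0.25 in the control dams, the last being dam 14. It was -0.17, -0.068, 0.053, 0.11 and 0.15 at the low dose and 0.0022, 0.0067, 0.080, 0.13 and 0.13 at the medium dose. High-dose dams stood at -0.040, -0.036, 0.19, 0.24 and 0.41, the last being dam 60. Thus 2 of 5 high-dose dams were below the control mean, and control dam 14 was above all but 1 of the other 19 dams. High minus control on the same slide was 0.54, 0.033, -0.011, 0.27 and -0.067 on slides 1 to 5.

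**Figure D3:**
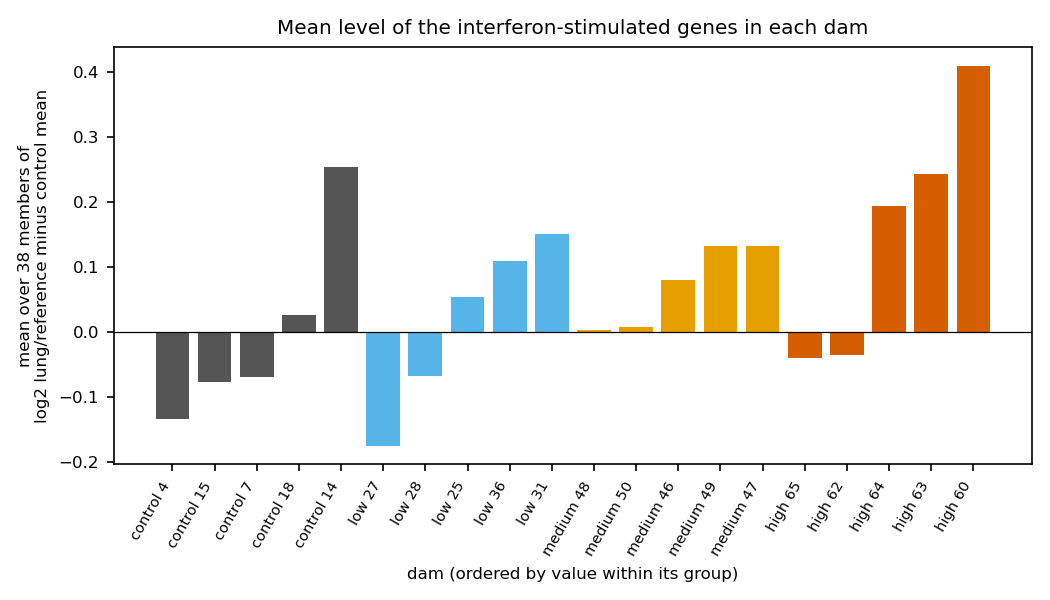
Mean over the 38 members of log2 lung/reference in each dam, minus the control mean (y axis), with dams ordered by value within their dose group (x axis; bars start at 0). The bars run from -0.17 in low dam 27 to 0.41 in high dam 60, and control dam 14 stands at 0.25 while the other 4 controls lie between -0.13 and 0.027.

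Single dams carried this variation across most members at once. In control dam 14, 35 of 38 members were above their own group mean, and in high dam 60, 32 were. In low dam 27 and in high dams 62 and 65, 3 of 38 were. Markers of other cells were compared in both dams. In control dam 14 the mean of 5 neutrophil markers was 0.89 above the control mean, that of 4 monocyte markers 0.47 above and that of 4 heart muscle markers 1.52 below. In high dam 60 the neutrophil markers were 0.54 below the control mean and the heart muscle markers 0.084 below, both within the range of the other high-dose dams. The mean of the lung tissue markers was the highest of its group in both dams, at 0.66 in control dam 14 and 0.30 in high dam 60. The next dams of these groups stood at 0.15 and 0.27. It was also the highest of its group in low dam 27, at 0.38. The part of these cells in the members' levels was not tested.

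Within dose groups the members moved together from dam to dam. After the group means were subtracted, the median Pearson correlation over the 703 pairs of members was 0.53 across 20 dams, and 53.2% of pairs exceeded 0.5. Over all pairs of genes tested the median was 0.0007 and 4.68% exceeded 0.5, and between members and all other genes the median was 0.013. These correlations share arrays and dams and are given as a description. The members lay above background on all 20 arrays, which the filter did not require of other genes. No comparison with genes matched for signal was made. Without control dam 14 and high dam 60 the members' median was 0.40.

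Coherence differed between roles. The 5 interferon-inducible GTPases had a median correlation of 0.73, with all 10 pairs over 0.5. The median was 0.67 for the transcription factors, 0.66 for antigen processing and 0.54 for the antiviral effectors. It was 0.33 in the OAS family and 0.30 among the sensors. Sensor pairs with Ddx58 ran from -0.027 to 0.245, and the other sensor pairs from 0.283 to 0.679. OAS pairs with Oas1b or Oas3 ran from -0.19 to 0.44, and the other OAS pairs from 0.395 to 0.857. The closest pair was Dhx58 and Oasl2, at 0.92.

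Some members stood outside the common pattern. Of the 38, 26 had a median correlation with the others over 0.5 and 5 had one under 0.2. These 5 were Ddx58 at -0.0052, Isg20 at -0.0027, Oas1b at 0.10, Rsad2 at 0.13 and Oas3 at 0.18. Ddx58, the member called at the high dose, therefore did not follow the other members within groups as read by its brightest probe. Only that probe entered these correlations. Over all dams it had correlations of 0.47, 0.22 and 0.35 with the other Ddx58 probes. Rsad2 and Isg20, a 3′-5′ exonuclease, followed each other instead, with a correlation of 0.83, a pair chosen after its values were seen.

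**Figure D4:**
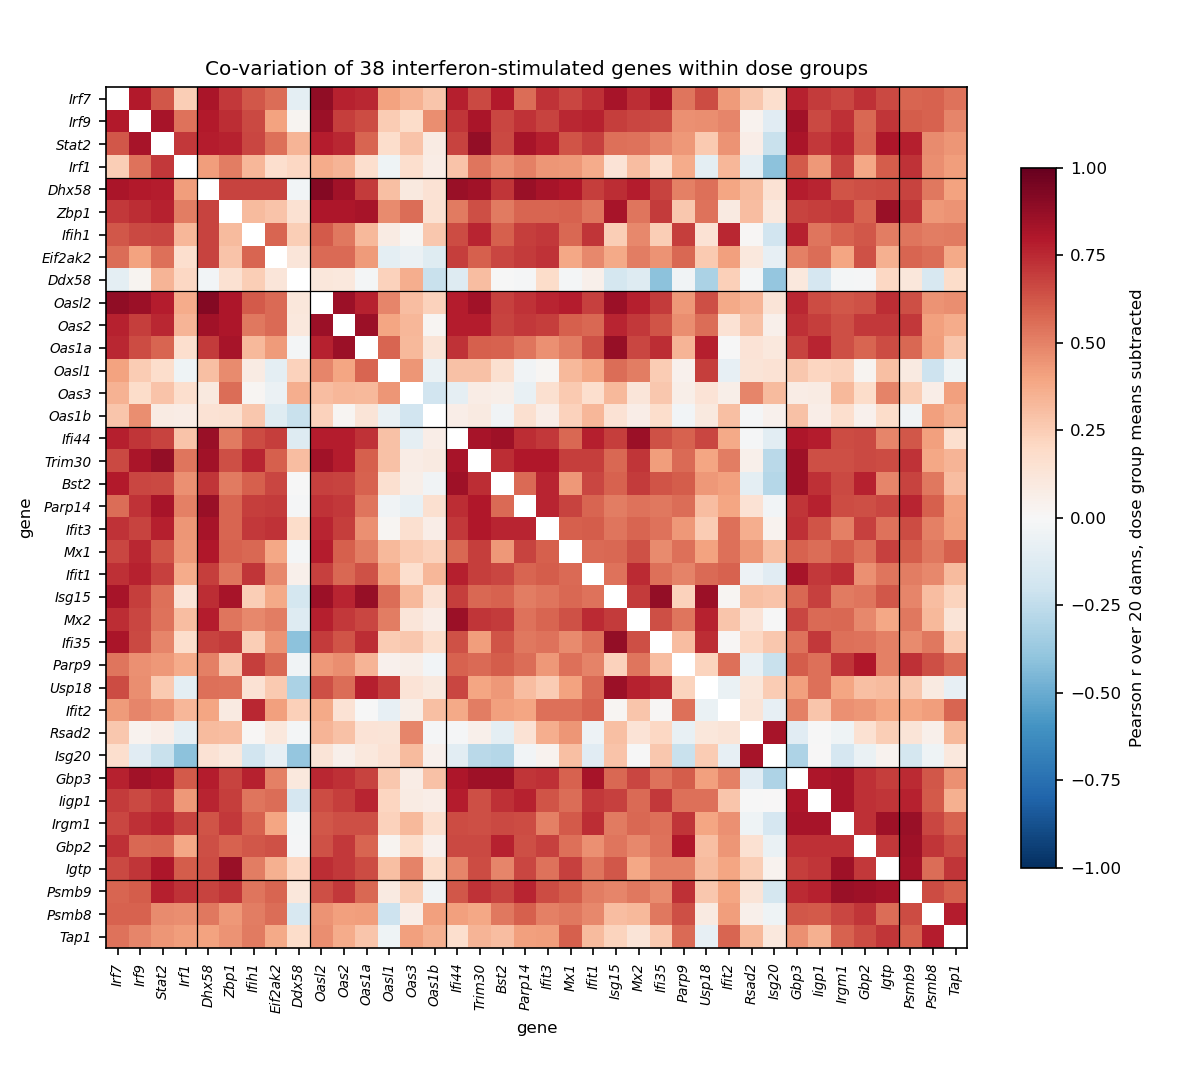
Pearson correlation between each pair of the 38 members over 20 dams after the dose group means were subtracted (colour scale from -1 to 1), with genes on both axes grouped by role and lines between roles. Most of the field is positive, with a median of 0.53, while the rows of Ddx58, Isg20, Rsad2, Oas1b and Oas3 are pale or mixed.

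Irf7 served as an anchor for this co-variation, because its product is known to drive many of the other members. For each gene a slope was fitted on the Irf7 value of the same dam with the dose group in the model. Of 37 members, 36 had a positive slope (97.3%, against 52.0% of all genes), with a median of 0.56 against 0.0093. At an unadjusted p under 0.05, 29 of 37 were positive (78.4%), against 4.40% of all genes. The adjusted test called 2 members, Oasl2 and Isg15, against 0.0402% of all genes called with a positive slope, which is 8 genes of 19914.

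Oasl2 had a slope of 1.41 ± 0.18 log2 units per unit of Irf7 (adjusted p = 0.00151). Its values were 0.95, 1.06, 1.13, 1.15 and 1.87 in controls and 0.95, 1.05, 1.53, 1.71 and 2.11 at the high dose. Control dam 14 and high dam 60 held the highest Oasl2 and the highest Irf7 of their groups. Without high dam 60 the adjusted p was 0.0501, and without both dams it was 0.597 with a slope of 1.08.

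Isg15, the ubiquitin-like modifier, had a slope of 1.22 ± 0.20 (adjusted p = 0.0262). It stood at -1.16, -1.13, -0.96, -0.87 and -0.41 in controls and at -0.92, -0.91, -0.61, -0.19 and 0.10 at the high dose, again with dams 14 and 60 on top. The call was lost in 9 of the 20 fits that left out 1 dam, with adjusted p up to 0.465 (without high dam 60). The other 8 were those without low dam 25 or 28, high dam 62 or 65, control dam 14 or 15, or medium dam 49 or 50, and gave adjusted p from 0.0511 to 0.229. Without both dam 14 and dam 60 the slope was 0.91 (adjusted p = 0.793).

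Dhx58 and Ifi44 came next, with slopes of 0.75 ± 0.14 (adjusted p = 0.0795) and 1.01 ± 0.20 (adjusted p = 0.0982). Dhx58 ranged from 0.44 to 0.96 in controls and from 0.43 to 1.08 at the high dose, with dams 14 and 60 again highest. Ifi44 ranged from -1.60 to -0.98 in controls and from -1.14 to -0.19 at the high dose, where dam 60 was highest. The member with a negative slope was Ddx58, read by its brightest probe, at -0.08 ± 0.21.

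**Figure D5:**
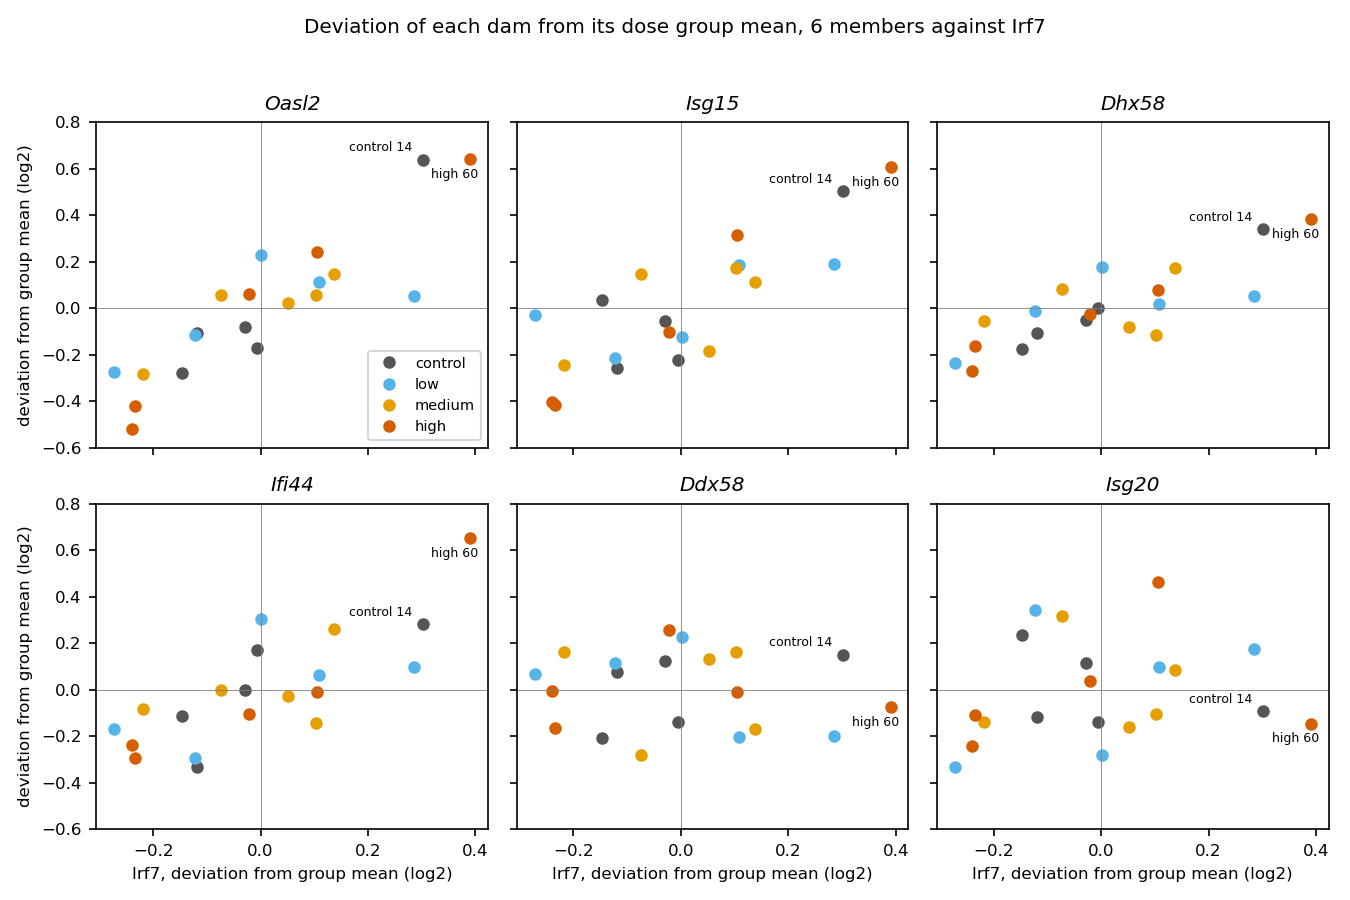
Deviation of each dam from its dose group mean for 6 members (y axis, log2) against the same deviation for Irf7 (x axis, log2), coloured by group. In Oasl2, Isg15, Dhx58 and Ifi44 the points run upwards to control dam 14 and high dam 60, while those of Ddx58 and Isg20 show no such run.

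The genes outside the list with the smallest p on the Irf7 slope were Ifitm7, Rtp4, Ifitm3 and Fbxo39. Ifitm3 restricts virus entry, Ifitm7 belongs to the same family, and Rtp4 is an interferon-induced chaperone of receptors. Their slopes were 0.77 ± 0.078, 1.25 ± 0.13 and 0.78 ± 0.091 for Ifitm7, Rtp4 and Ifitm3, with adjusted p of 0.000151, 0.000151 and 0.000445. Rtp4 ranged from 0.69 to 1.33 in controls and from 0.81 to 1.75 at the high dose, highest in dams 14 and 60. All 3 kept an adjusted p of at most 0.0176 when any 1 dam was left out. Without both dams Ifitm7 and Rtp4 passed (adjusted p = 0.0249 and 0.0345) and Ifitm3 did not (0.218). None differed from control at any dose, with adjusted p from 0.505 to 0.993 at the high dose.

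The probe named Fbxo39 had a slope of 1.00 ± 0.13 (adjusted p = 0.00151). In the RefSeq gene table the near-identical name Fbox39 is a synonym of the missing member Xaf1, and both genes lie on chromosome 11. Which of the genes this probe reads cannot be told from its name. Its adjusted p was 0.448 without dams 14 and 60, and 0.0568 with slide as a block. Phf11d and Lgals3bp, both interferon-induced and chosen after their values were seen, were also called, with slopes of 0.92 ± 0.14 (adjusted p = 0.00659) and 0.82 ± 0.13 (adjusted p = 0.0240). Without high dam 60 neither passed, at 0.167 and 0.337, nor did they without dams 14 and 60 (0.448 and 0.793) or with slide as a block (0.126 and 0.128). Phf11d passed when any other single dam was left out, and Lgals3bp also lost it without low dam 27, high dam 62, control dam 14 or 15, or medium dam 49 or 50.

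Upstream of the members, interferon transcripts themselves were scarcely measured. Of 10 interferon genes on the list, 8 had a probe, and 7 of these were above background on at most 5 of 20 arrays. Ifng, made mainly by natural killer and T cells, was the exception. It was 1.43, 1.51, 1.57, 1.66 and 1.79 in controls and 0.87, 0.97, 1.01, 1.09 and 1.25 at the high dose, so the groups did not overlap. The same held in this direction for 1.99% of all genes. Ifng fell by 0.55 ± 0.11 on the log2 scale (adjusted p = 0.0204). It differed by -0.31 ± 0.11 at the medium dose and -0.27 ± 0.11 at the low dose, neither of which passed (adjusted p = 0.239 and 0.633). The high-dose call was lost without high dam 62 or 63 or control dam 15 or 18, with adjusted p up to 0.0595.

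Of 10 natural killer and T cell markers, 3 were also called lower at the high dose, against 0.532% of all genes. A positive difference was found in 3 of them, against 46.7% of all genes. The mean of the list relative to control ran from -0.15 to 0.072 in controls and from -0.49 to -0.15 in high-dose dams. The called genes were the receptor Klra8 (-0.91 ± 0.14, adjusted p = 0.00415), the receptor Klrb1c (-0.71 ± 0.14, adjusted p = 0.0190) and perforin, Prf1 (-0.69 ± 0.14, adjusted p = 0.0177). Klrb1c lost its call without high dam 63 or control dam 15 or 18, with adjusted p up to 0.0586. The part of these cells in the Ifng value was not tested. All 10 list genes were tested, and none of them had a significant slope on Irf7.

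Siglech marks plasmacytoid dendritic cells, a main source of type I interferon. It was the 1 gene called at the medium and the low dose. It was 0.71 to 0.93 in controls, 0.35 to 0.46 at the low, 0.20 to 0.45 at the medium and 0.28 to 0.46 at the high dose. Siglech was therefore lower in every exposed dam than in every control. Over all genes, 1.99% lay wholly below the controls at the high dose and 1.25% at the medium dose. At the low dose 1.48% were separated in either direction. Of the 7 markers of this cell on the list it was the 1 that passed, and 3 had a positive difference at the high dose. The list mean ran from -0.19 to 0.095 in controls and from -0.25 to 0.29 in high-dose dams. Among other markers, the alveolar macrophage and eosinophil receptor Siglecf (-0.93 ± 0.15, adjusted p = 0.00415; 1 of 6) and the neutrophil granule gene Camp (-1.33 ± 0.30, adjusted p = 0.0339; 1 of 5) were lower at the high dose. Over all genes 0.532% were called lower at this dose. A positive high-dose difference was found in 3 of the 6 alveolar macrophage markers and in 0 of the 5 neutrophil markers, against 46.7% of all genes. The alveolar macrophage list mean ran from -0.19 to 0.30 in controls and from -0.67 to 0.031 in high-dose dams. The neutrophil list mean ran from -0.42 to 0.89 in controls and from -1.09 to -0.45 in high-dose dams. Camp lost its call in 7 of 20 fits, those without control dam 7, 14 or 18 or high dam 62, 63, 64 or 65, with adjusted p up to 0.0827. The part of any of these cells in the members' values was not tested.

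The receptors and JAK-STAT signalling genes gave 0 calls of 16 at any dose. At the high dose 10 were positive and 6 were higher at an unadjusted p under 0.05, against 46.7% and 7.69% of all genes. Stat3, the main mediator of interleukin-6 signals, differed by 0.32 ± 0.093 (adjusted p = 0.0988), the feedback inhibitor Socs3 by 0.30 ± 0.090 (adjusted p = 0.103) and the phosphatase Ptpn2 by 0.18 ± 0.057 (adjusted p = 0.126). Stat3 was 0.50 to 0.57 in controls and 0.74 to 1.14 at the high dose, without overlap, as was so in this direction for 1.49% of all genes.

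Genes of interferon induction gave 0 calls of 17 at any dose. At an unadjusted p under 0.05, 0 were higher and 1 lower at the high dose, against 7.69% and 8.83% of all genes. Mavs, the adaptor of RIG-I-like receptors, differed by -0.12 ± 0.057 (adjusted p = 0.293), the Toll-like receptor adaptor Myd88 by 0.12 ± 0.062 (adjusted p = 0.335) and the DNA-sensing adaptor Sting1 by 0.23 ± 0.12 (adjusted p = 0.344).

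Another 51 interferon-induced genes outside the list gave 0 calls at any dose. At the high dose 34 were positive with a median of 0.049, against 46.7% and -0.0091 for all genes. At an unadjusted p under 0.05, 4 were higher and 1 lower, against 7.69% and 8.83% of all genes. The chemokine Cxcl10 differed by 0.91 ± 0.23 (adjusted p = 0.0576). Its values were -1.56, -1.42, -1.39, -1.15 and -0.38 in controls and -0.72, -0.68, -0.46, -0.20 and 0.70 at the high dose, with control dam 14 above 3 of the 5 high-dose dams. The small mitochondrial protein gene Ifi27l2a differed by 0.79 ± 0.28 (adjusted p = 0.170) and the chemokine Ccl5 by -0.50 ± 0.15 (adjusted p = 0.106). On the Irf7 slope 4 of these 51 were called, namely Rtp4, Ifitm3, Phf11d and Lgals3bp.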

How the data were processed

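Each of 20 lungs was measured on 1 two-colour Agilent array, and the dams are separate animals per the labels. The deposited value table holds log2 lung (Cy5) over reference (Cy3); its normalisation method is not given in the sources read, and its values correlated at 0.993 to 0.996 with a loess fit of the deposited scanner intensity values without background subtraction. Scanner files came from Feature Extraction (9.5.1.1 in 18 file headers, 10.1.1.1 in 2, 9.5.3.1 per the labels' protocols) and also hold the software's log10 ratio per the file headers.

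Genes were kept where a probe lay well above background in Cy5 on at least 3 of 5 arrays of 1 group and had values on at least 16 arrays. The brightest probe stood for a gene. limma 3.58.1 in R 4.3.3 was fitted on all 20 arrays with p-values adjusted over 19915 genes (Benjamini-Hochberg, threshold 0.05). Of these, 15619 were matched to a known gene symbol. The slope model added the Irf7 value to the dose group. Both models were tested on simulated data in which 200 genes were changed by a known size. For high dose against control, 152 were recovered at a size of 0.5 and 200 at a size of 1. On the Irf7 slope, 34 were recovered at 0.5 and 168 at 1, so many slopes of 0.5 were missed.

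The members and all gene lists were chosen with earlier results of these data known. Genes given dam by dam were, by smallest p, 6 members at the high dose, 3 each at the medium and low doses, Irf7 and 4 on the Irf7 slope; the 4 non-members with the smallest p on that slope were named. From pathway and marker lists those called in any comparison were named, otherwise the 3 of smallest high-dose p. Others were chosen after their values were seen and are named as such. Alternatives covered the value source, reference channel, scaling, filter, outlier spots, probe choice, slide and scan day, and each dam left out. The other kept probes, and the fit without control dam 14 and high dam 60, were added after seeing the data.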

Additional observations from a re-analysis of the deposited data

Results flagged for a closer look

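In groups of 5 dams, 60 checks on the 14 members given dam by dam and on the mean over all members found 4 values set apart from the rest of their group, where the gap to the nearest dam, divided by the group's range, exceeded Dixon's 95% critical value. Chance gives about 1 in 20. Oasl2 in the control group had a share of 0.785, with dam 14 at 1.87 and the next dam at 1.15. Oas2 in the control group had 0.737, with dam 14 at 0.25 and the next at -0.34. Bst2 in the high group had 0.713, with dam 60 at 0.90 and the next at 0.47. Oasl2 in the medium group had 0.713, with dam 50 lowest at 1.01 and the next at 1.31.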

How the results depend on the processing

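The call of 1 member at the high dose became 0 with normexp and loess on scanner signals, with the software's log ratio, with the Cy5 channel alone, with the mean of all kept probes and with only the 2 groups fitted. It ranged from 0 to 2 when 1 dam was left out. The 2 calls on the Irf7 slope became 1 with normexp and loess, 1 with the software's log ratio, 0 with Cy5 alone, 1 with slide as a block, 4 with scan day as a block, 1 without the 2 medium arrays of slide 6, and 0 without high dam 60 and low dam 27 or without control dam 14 and high dam 60. Leaving out 1 dam gave 0 to 5. The median pairwise correlation of 0.53 became 0.42 with Cy5 alone, 0.61 with slide as a block and 0.40 without control dam 14 and high dam 60, and ranged from 0.47 to 0.54 when 1 dam was left out. The normexp and loess counts came from a fit in which low dam 27 stood apart. Its fitted values correlated at 0.927 with the deposited values, against 0.992 to 0.995 for the other dams. Its slope against the other arrays was 0.68 in that fit and 1.00 once refitted. For the other settings the cause was not tested. The median high-dose difference stayed between 0.069 and 0.19 over all fits that left out 1 dam, and the low-dose median between -0.034 and 0.076. The counts of 0 members at the medium and low doses, and between doses, were 0 in every alternative run. No paired analysis was possible because the groups share no replicate numbers, and slide was fitted as a block instead. With 5 dams a group, the 95% interval of a member's difference had a median half-width of 0.24.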
